A study of Homo sapiens with 12 samples.

Results

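501Mel melanoma cells exposed to vemurafenib (Vem) were compared directly with 501Mel cells exposed to TCDD, without going through the vehicle libraries. 501Mel is an established line of human melanoma with an activating BRAF mutation. Its cells received 1 µM Vem or 10 nM TCDD for 48 h, and both groups held 2 RNA libraries, which makes 4 of the 12 libraries of the series. The members of the comparison are these 4 libraries, chosen by their labels, and the 16080 of 56638 gene symbols that passed a filter on low counts. The doses differ, so every value compares 1 µM Vem with 10 nM TCDD and not equal amounts. The other groups, also with 2 libraries each and 48 h of exposure, were vehicle (DMSO), 5 µM resveratrol (RSV), RSV with 1 µM Vem (RSV+Vem), and RSV with TCDD (RSV+TCDD). For RSV+TCDD the sample label gives 1 nM TCDD and the treatment protocol gives 10 nM. The study asked whether Vem, a BRAF inhibitor, acts on the aryl hydrocarbon receptor (AhR) in another way than TCDD, a classical AhR agonist. All libraries came from 1 cell line and nothing in the labels says that they were separate cultures, so p-values measure the spread between these libraries, which may be technical. In bulk RNA, fewer cells of a kind and less RNA per cell cannot be told apart.

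AhR is a cytosolic receptor held by HSP90 and cochaperones. After binding an agonist such as TCDD it enters the nucleus, pairs with ARNT and binds xenobiotic response elements (XREs) at genes of xenobiotic metabolism such as CYP1A1. Mutant BRAF keeps the MEK and ERK kinases active in melanoma, which maintains ERK feedback genes, cyclin D1 and passage through the cell cycle, and Vem blocks this kinase.

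The Vem libraries held 15944197 and 14632070 counts on genes, and the TCDD libraries 23271945 and 14338839. Transcripts of the mitochondrial genome took 9.08% and 7.38% of the counts with Vem and 4.45% and 5.08% with TCDD. The 10 most counted genes held 13.3% and 12.3% with Vem and 7.41% and 7.78% with TCDD. All 7 melanocytic markers (MITF, SOX10, PMEL, MLANA, TYR, TYRP1 and DCT) were detected in all 4 libraries. Their summed level was 48206 and 51552 CPM (counts relative to library size, with TMM factors) with Vem, and 27187 and 26251 CPM with TCDD. Markers of other cell types were at or near 0: KRT5, KRT14, CD3E and PECAM1 had no count, and PTPRC had at most 4. Of the 8 fibroblast markers, 5 passed 3 counts in a library, their sum was 11.3 and 9.91 CPM with Vem and 42.7 and 35.4 CPM with TCDD and most of it was LUM, the proteoglycan lumican, and FAP, a surface protease. Of the 8 immune markers 3 passed 3 counts, at sums of 0.209 to 0.857 CPM over the 4 libraries, and of the 6 endothelial markers 3 did, at sums of 0.361 to 1.31 CPM. Of the 8 keratinocyte markers only KRT10 did, and their sums were between 17.8 and 26.0 CPM.

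Vem and TCDD left the cells with widely different transcriptomes. By quasi-likelihood tests in edgeR, with p-values adjusted after Benjamini and Hochberg across 16080 genes, 8146 genes (50.7%) differed at an adjusted p below 0.05, of which 3877 (24.1% of all tested) were higher with Vem and 4269 (26.5%) were lower with Vem than with TCDD. The shares of 24.1% higher and 26.5% lower are the background for each count of called list members below. The extremes leaned to the lower side: 240 called genes were over 4-fold higher with Vem and 531 over 4-fold lower. Of 12833 tested protein-coding genes with 1 annotated position, 3402 were higher and 3648 lower, and of 478 long noncoding RNAs 105 were higher and 97 lower. The groups did not overlap in 12454 genes, 77.5% of those tested. The division into higher and lower depended on the scaling. With libraries scaled to the added ERCC spike-in RNAs, which moved the median log2 fold change of all genes to -0.17, the fit of all 12 libraries called 359 genes higher and 1194 lower. The same scaling within the 4 libraries, an alternative added after the data were seen, called 2750 higher and 5121 lower.

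**Figure D1:**
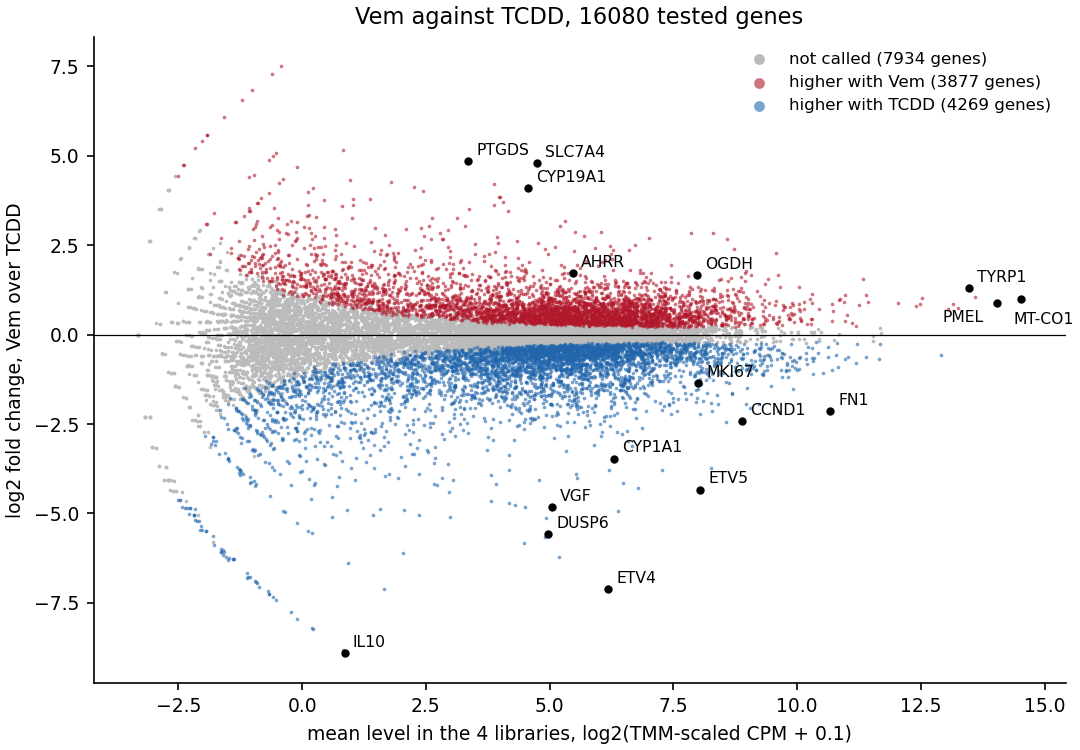
Each point is 1 of the 16080 tested genes, with its mean level over the Vem and TCDD libraries on the x axis, as log2(TMM-scaled CPM + 0.1), and its log2 fold change of Vem over TCDD on the y axis. Red points were called higher with Vem (3877), blue points higher with TCDD (4269), and black points are named genes. CYP1A1, ETV4 and DUSP6 lie far below 0, while TYRP1, PMEL and MT-CO1 lie above 0 at the right, among the most abundant transcripts.

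AhR target genes separated the treatments, with CYP1A1 far higher with TCDD. CYP1A1 (GRCh37, chr15:75011883-75017877, reverse strand), which encodes the xenobiotic-metabolising monooxygenase used as the classical AhR readout, stood at 13.6 and 12.4 CPM in the Vem libraries and 156 and 131 CPM in the TCDD libraries. Both Vem libraries lay below the vehicle libraries, at 23.5 and 23.1 CPM, and both TCDD libraries lay above them. The log2 fold change of Vem over TCDD was -3.47 (standard error 0.13, adjusted p = 1.38e-11 by the quasi-likelihood test of edgeR, Benjamini-Hochberg adjusted), an 11.1-fold lower level with Vem. Its promoter is shown for the core letters of the XRE. The sequence holds the 250 bases before the start of CYP1A1 on its own strand (chr15:74725529-74725778, reverse strand, RefSeq, GRCh38.p14), with the XRE core in capitals.

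CYP1A1: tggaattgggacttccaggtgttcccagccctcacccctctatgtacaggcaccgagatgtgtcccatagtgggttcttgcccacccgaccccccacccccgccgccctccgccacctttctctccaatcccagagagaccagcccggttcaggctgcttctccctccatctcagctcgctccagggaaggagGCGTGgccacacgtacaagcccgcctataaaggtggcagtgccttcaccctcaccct

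The XRE core was searched as GCGTG on both strands and occurred once here. It is a short motif that 45.3% of the 10888 tested genes with a promoter sequence and 31.9% of all 27305 RefSeq promoters of the same length hold, beside 6 of the 9 canonical AhR targets with a promoter sequence. The promoter of NQO1 held no match. Here and in the promoters below, a match describes letters and not binding.

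Of 17 canonical AhR targets, 10 passed the filter on low counts, 7 of them were lower with Vem than with TCDD and 2 were higher, beside 26.5% lower and 24.1% higher among all tested genes. Over vehicle, the list median was -0.29 with Vem and 0.66 with TCDD, beside -0.03 and -0.005 over all tested genes. At the median the list thus lay below vehicle with Vem and above it with TCDD. TIPARP, an ADP-ribosyltransferase that restrains AhR, was at 35.3 and 33.1 CPM with Vem and 109 and 91.5 CPM with TCDD (log2 fold change -1.55, adjusted p = 2.67e-08). NQO1, a quinone reductase shared with the NRF2 pathway, was at 285 and 308 CPM with Vem and 627 and 578 CPM with TCDD (-1.03, adjusted p = 1.21e-07), and its Vem level was close to the vehicle level of 294 ± 9.07 CPM (SD, n = 2). In both genes the Vem libraries lay apart from and below the TCDD libraries. HES1, a Notch pathway repressor, differed most by ratio among the well-counted targets, at 1.95 and 1.15 CPM with Vem and 29.0 and 27.9 CPM with TCDD (log2 fold change -4.18). NFE2L2, the NRF2 gene (-1.28), and VAV3, a guanine nucleotide exchange factor (-0.80), were lower too, and so was PTGS2, the inducible cyclooxygenase, on no counts with Vem and 4 in each TCDD library. The call of VAV3 was lost without TCDD replicate 1 (adjusted p = 0.0836), and that of PTGS2 without TCDD replicate 2 or either Vem library (adjusted p = 0.0565 to 0.0849). Spike-in scaling left 4 targets lower in the fit of 12 libraries and 6 in that of the 4 libraries.

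2 AhR targets were higher with Vem than with TCDD. AHRR, the AhR repressor and itself an AhR target, reached 72.7 and 62.9 CPM with Vem against 21.5 and 19.3 CPM with TCDD and 24.6 and 21.1 CPM with vehicle (log2 fold change over TCDD 1.73, standard error 0.15, adjusted p = 7.01e-08). The TCDD libraries lay below both Vem libraries and overlapped with the vehicle libraries. SLC7A5, the large neutral amino acid transporter LAT1, stood at 3871 and 3854 CPM with Vem and 1278 and 1339 CPM with TCDD (1.56). CYP1B1, a CYP1 family enzyme, was barely counted, at 0.348 and 0.231 CPM with Vem and 0.812 and 0.662 CPM with TCDD, and did not pass the test (log2 fold change -1.34, adjusted p = 0.0604). CYP1A2, ALDH3A1, UGT1A6, CYP2S1, SERPINB2, LRRC25 and IL1B did not pass the filter, and of these only SERPINB2 exceeded 1 count, with 10 and 4 in the TCDD libraries. Of 8 AhR target genes taken from the study's text, which cites other work for its set, 6 were tested and 4 were lower with Vem (RUNX2, PMAIP1, REEP2 and LRRC49), of which REEP2 lost its call with DESeq2 (adjusted p = 0.0948) and without TCDD replicate 2, Vem replicate 1 or Vem replicate 2 (adjusted p = 0.12 to 0.184). That the study names these genes beside these libraries makes their direction no independent evidence. Over vehicle, the 6 tested members had a median of -1.39 with Vem, with 4 called lower and 0 higher. With TCDD over vehicle the median was -0.22, with 1 called higher and 0 lower. Over all tested genes the medians over vehicle were -0.03 with Vem and -0.005 with TCDD. The shares of all tested genes called over vehicle are not given here, so these counts lack a background.

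The receptor itself was lower with Vem. AHR stood at 19.5 and 18.6 CPM with Vem, 50.8 and 45.4 CPM with TCDD and 55.0 and 58.3 CPM with vehicle, so that the Vem libraries lay below all others (log2 fold change over TCDD -1.34, adjusted p = 1.19e-07). Its partner ARNT was slightly higher with Vem, at 92.9 and 98.5 against 69.7 and 72.9 CPM (0.43), a call that was lost with spike-in scaling (adjusted p = 0.792 with 12 libraries and 0.0642 with 4). The chaperone HSP90AA1 (-0.68) and the cochaperone PTGES3 (-0.97), which hold AhR ready for ligand, were lower, while RELB, an NF-kB subunit that can pair with AhR, was higher (1.39). In the whole list of 13 tested partners 6 were higher, 4 lower and 3 not called, and the median of 0.11 turned to -0.03 with spike-in scaling.

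ERK output genes showed the deepest loss with Vem. Of 22 tested members, 18 were lower with Vem than with TCDD and 0 were higher, with a median log2 fold change of -2.87 beside -0.02 over all tested genes. The list median over vehicle was -3.00 with Vem and -0.03 with TCDD. ETV4 (chr17:41605212-41656988, reverse strand), a PEA3 family ETS factor switched on by ERK, had 1.11 and 0.922 CPM with Vem and 138 and 149.8 CPM with TCDD. Of all called genes only IL10 and SPRR2D, without a count with Vem, had a lower fitted log2 fold change where 1 group reached a mean count of 50. That of ETV4 was -7.13 (standard error 0.17, adjusted p = 1.10e-13), or 139.6-fold. Its relative ETV5 was at 28.1 and 21.5 against 495 and 508 CPM (-4.33).

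Feedback inhibitors of the pathway followed the same direction. DUSP6 (chr12:89741012-89746278, reverse strand), the cytosolic phosphatase of ERK, had 1.81 and 0.692 CPM with Vem and 57.0 and 65.6 CPM with TCDD (log2 fold change -5.58, adjusted p = 3.60e-11), and the nuclear phosphatase DUSP4 had 21.1 and 20.7 against 281 and 292 CPM (-3.78). The Sprouty proteins, which dampen receptor signalling to RAS, also differed: SPRY4 had 1.67 and 0.615 against 56.7 and 60.8 CPM (-5.65) and SPRY2 2.02 and 1.38 against 24.9 and 27.5 CPM (-3.93). In each of these genes every TCDD library was many times above every Vem library. SPRED1 (-1.99) and SPRED2 (-0.52), further inhibitors of the pathway, IER3, an early response gene (-4.16), EGR1, an early response zinc finger factor (-2.88), and FOSL1, a subunit of AP-1 (-1.96, adjusted p = 0.0557 without Vem replicate 1), were lower as well. CCND1, cyclin D1, fell from 759 and 831 CPM with TCDD to 149 and 149.5 CPM with Vem (-2.41, adjusted p = 1.11e-11), and EPHA2, an ephrin receptor, differed by -2.86. The 4 members not called were DUSP5 (-0.77), EPHA4 (-0.01), IL8 (-1.56) and LIF, a cytokine with no count with Vem and 1 and 2 counts with TCDD. Under spike-in scaling in the fit of 12 libraries, 17 members were lower.

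**Figure D2:**
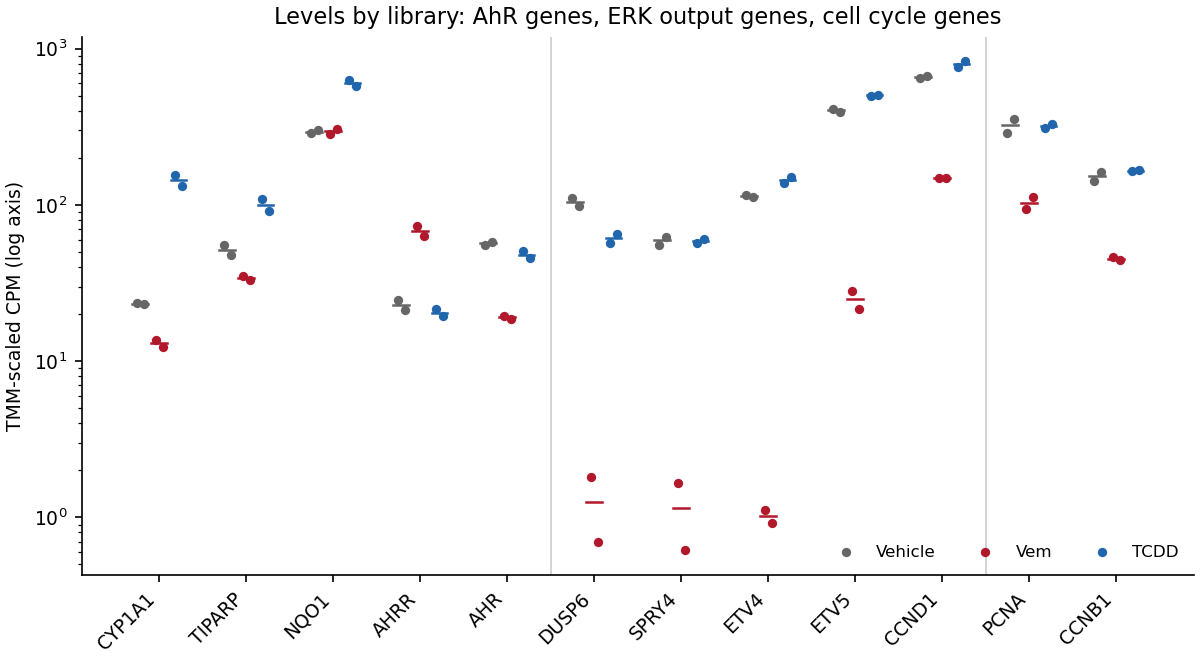
Points are single libraries, with TMM-scaled CPM on a log axis and a bar at the mean of both libraries of a group, for vehicle (grey), Vem (red) and TCDD (blue). The left block holds AhR genes, the middle block ERK output genes and the right block cell cycle genes. CYP1A1, TIPARP and NQO1 are highest with TCDD, AHRR is highest with Vem, and the ERK output and cell cycle genes are lowest with Vem.

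Few of the kinases that carry the signal were called. Of 18 MAPK pathway genes 2 were higher with Vem, ARAF (0.77) and MAPK3 (0.34), which encode the RAF kinase ARAF and ERK1, the latter lost without TCDD replicate 1 or either Vem library (adjusted p = 0.0518 to 0.195), and 2 were lower, MAP2K1 (-0.46), which encodes MEK1, and RASA2 (-1.31), a GTPase activator of RAS. BRAF stood at 36.6 and 38.1 CPM with Vem and 30.4 and 30.1 CPM with TCDD (0.30, adjusted p = 0.0577), and it passed in the fit of the compared libraries alone (adjusted p = 0.00523), with RLE factors (0.0417) and with the stricter count filter (0.0473). Of 21 G1 genes 15 were lower and 0 higher, among them E2F1, the activator of S phase genes (-1.01), CCNE2, cyclin E2 (-1.24), E2F7 (-1.49) and E2F8 (-1.78), repressors of the same family, and the CDK inhibitor CDKN1C (-1.76). CDKN1B, the CDK inhibitor p27, did not pass the test, at 65.8 and 72.0 CPM with Vem and 107 and 86.4 CPM with TCDD (-0.49, adjusted p = 0.0729). It passed in the fit of the compared libraries alone (adjusted p = 3.92e-08) and without the count filter (2.47e-04), at the same log2 fold change.

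DNA replication genes were lower with Vem without exception among the tested members. All 50 tested members were called lower, with a median log2 fold change of -1.34. The list median over vehicle was -1.39 with Vem and -0.07 with TCDD. PCNA (chr20:5095599-5107272, reverse strand), the sliding clamp of DNA polymerases, had 94.6 and 112 CPM with Vem and 309.9 and 329 CPM with TCDD (log2 fold change -1.63, adjusted p = 5.26e-09). POLE (chr12:133200339-133263962, reverse strand), the catalytic subunit of the leading strand polymerase, had 23.2 and 21.7 against 147 and 158 CPM and differed most of the list (-2.77, standard error 0.12, adjusted p = 5.44e-11). The TCDD libraries lay near the vehicle mean for PCNA, at 323 ± 47.8 CPM (SD, n = 2), and below both vehicle libraries for POLE, at 169 and 203 CPM. In both genes the Vem libraries lay far below all of these. The replicative helicase subunits MCM2 (-1.25) and MCM7 (-1.87) were lower, as were CDC45 (-2.0) and GINS2 (-2.01), their partners in the active helicase. RRM2 (-1.36) and TYMS (-1.45), enzymes of nucleotide supply, were lower by similar amounts. The fit of 12 libraries under spike-in scaling called 38 of them lower.

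The promoter of POLE is shown for an element of the E2F family, which times replication genes. The capitals mark an E2F match in the 250 bases before the gene's start (chr12:132687343-132687592, reverse strand, RefSeq, GRCh38.p14).

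POLE: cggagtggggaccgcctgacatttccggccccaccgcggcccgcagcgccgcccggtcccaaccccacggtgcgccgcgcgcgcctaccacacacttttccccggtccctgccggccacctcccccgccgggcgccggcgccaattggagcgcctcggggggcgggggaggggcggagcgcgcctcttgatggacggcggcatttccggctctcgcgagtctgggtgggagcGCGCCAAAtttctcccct

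E2F elements were searched as TTTCCCGC, TTTGGCGC or TTTCGCGC on both strands. Such a match stood in 13 of the 42 replication genes with a promoter sequence (31.0%), in 3.77% of the 10888 tested genes with one, and in 2.38% of all 27305 promoters. The promoter of PCNA held a match and that of MCM2 did not.

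Mitotic genes were lower with Vem by more than the replication genes at the median. All 66 tested members of the spindle and kinetochore list were called lower, with a median of -1.83 and a range from -3.08 to -0.61. The list median over vehicle was -1.86 with Vem and -0.02 with TCDD. CENPE, the kinesin that carries chromosomes to the spindle equator, had 10.4 and 14.8 CPM with Vem and 109 and 103 CPM with TCDD (log2 fold change -3.08, adjusted p = 2.25e-09). CDK1 (chr10:62538089-62554610, forward strand), the kinase that starts mitosis, had 66.3 and 59.0 against 253 and 222 CPM (-1.92), and its partner CCNB1, cyclin B1, had 46.1 and 44.1 against 164 and 166 CPM (-1.87). None of the Vem libraries reached the level of a TCDD library in these genes. MKI67, which encodes the proliferation antigen Ki-67 (-1.36), PLK1 (-1.45) and AURKB (-2.01), mitotic kinases, and ASPM (-2.69), HMMR (-2.73) and CENPH (-2.60), proteins of the spindle and kinetochore, were lower too. The fit of 12 libraries under spike-in scaling called 59 of the 66 lower.

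The promoter of CDK1 is shown for the core letters of the cell cycle homology region (CHR), an element of late cell cycle genes (chr10:60778081-60778330, forward strand, RefSeq, GRCh38.p14, 250 bases before the start). The capitals mark these letters and not an element shown to act in CDK1.

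CDK1: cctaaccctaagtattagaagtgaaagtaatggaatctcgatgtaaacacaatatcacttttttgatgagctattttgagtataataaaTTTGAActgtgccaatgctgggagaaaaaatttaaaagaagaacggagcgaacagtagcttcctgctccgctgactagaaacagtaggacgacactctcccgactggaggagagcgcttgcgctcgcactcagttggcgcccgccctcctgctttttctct

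The CHR was searched as TTTGAA on both strands and stood in 26 of 56 mitotic genes with a promoter sequence (46.4%), in 8.57% of the tested genes and in 13.6% of all promoters. The promoter of PLK1 held a match and those of CCNB1 and CENPE did not. For the ERK output genes an ETS site was searched as CCGGAAGT on both strands, and 0 of 13 with a promoter sequence, DUSP6 among them, held it, beside 7.02% of the tested genes.

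Homologous recombination and Fanconi repair genes, many of which are transcribed in S phase, were lower in 31 of 35 tested members and higher in 0, with a median of -1.44. BRCA2, which acts in strand exchange, had 8.97 and 9.76 CPM with Vem and 39.2 and 39.5 CPM with TCDD (-2.07). BRCA1 (-1.18), the recombination factor XRCC2 (-2.44), the helicase BLM (-2.19), its partner RMI2 (-2.15) and MND1 (-2.46), a cofactor of recombination, were lower too. Of 23 p53 targets 9 were lower and 4 higher. MDM2, the p53 ubiquitin ligase, differed by -0.83, DDB2, a damage sensor, by -1.01, and the nuclease gene AEN by -1.31. CDKN1A, the CDK inhibitor p21, was counted 0 and 0 times in the Vem libraries and 4 and 0 times in the TCDD libraries, at or near 0 in both groups.

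**Figure D3:**
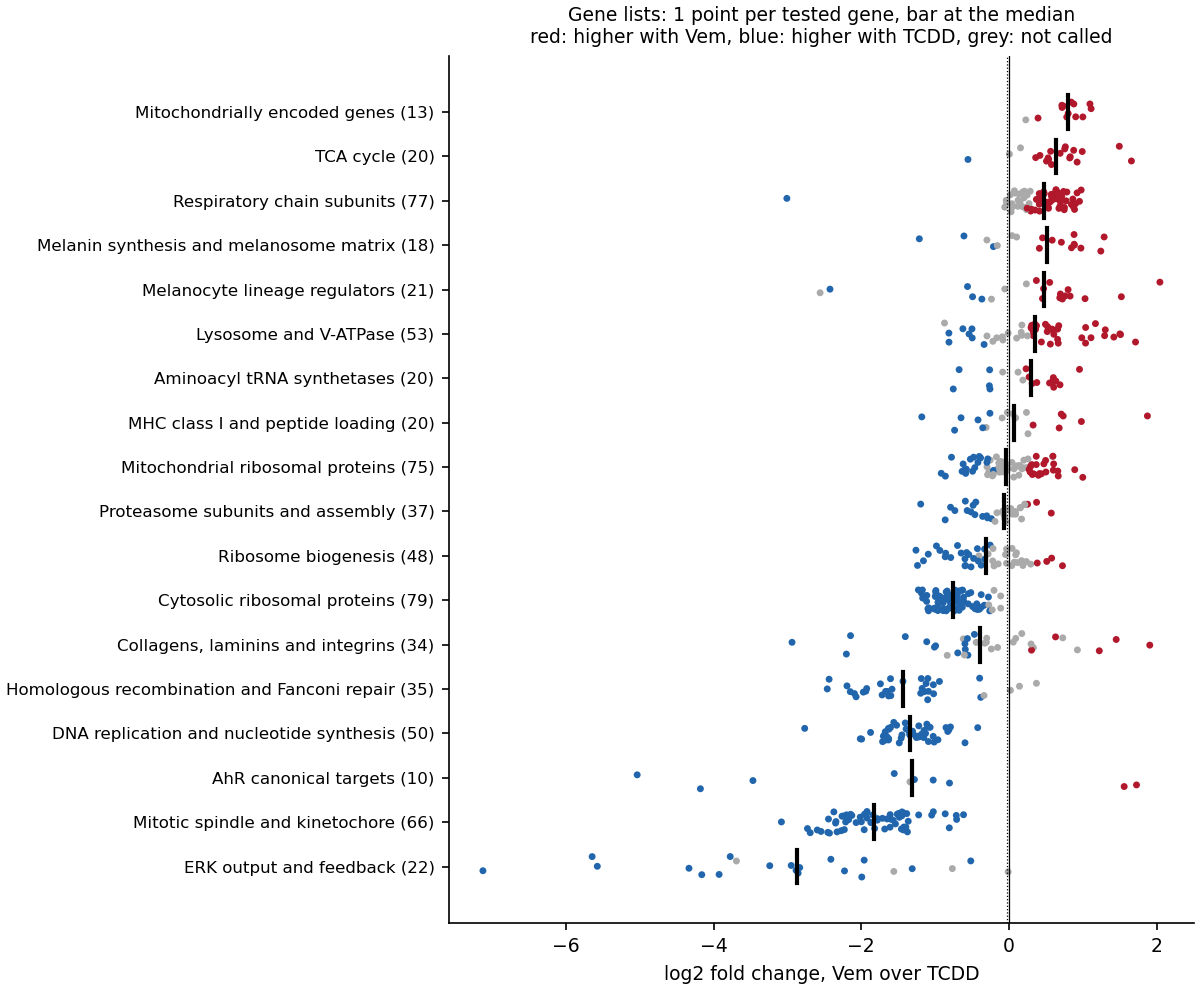
Each point is a tested gene of the list on the y axis (number of genes in brackets), at its log2 fold change of Vem over TCDD on the x axis. Black bars are list medians, the dotted line is the median of all tested genes, and colours mark called genes. Mitochondrial and TCA cycle genes sit to the right of 0, and ribosomal, replication, mitotic and ERK output genes to the left.

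Genes of mitochondrial energy metabolism were higher with Vem. Of the 13 protein genes of the mitochondrial genome, 12 were called higher and 0 lower, with a median log2 fold change of 0.80. MT-CO1, a catalytic subunit of cytochrome c oxidase, rose from 14779 and 16735 CPM with TCDD to 33856 and 29229 CPM with Vem (1.0, adjusted p = 3.71e-07). MT-ND1 (1.11) and MT-ND5 (1.10), complex I subunits, were higher by similar amounts, and the member not called was MT-ND6, the complex I subunit encoded on the light strand, at 194 and 127 against 122 and 153 CPM (0.23), which passed in the fit of the compared libraries alone (adjusted p = 0.00589).

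Nuclear genes of the respiratory chain were called higher in 53 of 77 tested members and lower in 1, with a median of 0.47. The shares over all tested genes were 24.1% higher and 26.5% lower. UQCRC1 of complex III was at 492 and 543 CPM with Vem and 259 and 266 CPM with TCDD (0.98), and ATP5B, the catalytic subunit of ATP synthase, at 2527 and 2636 against 1378 and 1385 CPM (0.90). Neither gene showed overlap between the groups. NDUFS1 of complex I (0.79), SDHA of complex II (0.69) and COX5B of complex IV (0.96) were higher as well. The 1 member called lower, NDUFV2 (-3.01), had 3 and 4 counts with Vem and 45 and 30 with TCDD, far below the other complex I subunits, so its value is uncertain.

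The TCA cycle held the largest single gains among these genes, with 17 of 20 tested members higher and a median of 0.64. OGDH (chr7:44646171-44748665, forward strand), a subunit of the 2-oxoglutarate dehydrogenase complex, was at 372 and 390.3 CPM with Vem and 119 and 122 CPM with TCDD, which is 3.16-fold higher (1.66, standard error 0.09, adjusted p = 4.92e-10). CS, citrate synthase, was at 539.5 and 534 against 291 and 293 CPM (0.88). The Vem libraries of both genes lay above the TCDD libraries. IDH2, an NADP-dependent isocitrate dehydrogenase, was the 1 member called lower (-0.55). PPARGC1A, the coactivator PGC1-alpha (0.72), and ESRRA, its nuclear receptor partner (0.99), were higher, while PPARGC1B (-1.56), a related coactivator, and TFAM (-0.63), which packages mitochondrial DNA, were lower, TFAM not without TCDD replicate 1 (adjusted p = 0.0514). The spike-in fit of 12 libraries called 0 of the mitochondrially encoded genes, 0 of the respiratory chain genes and 2 of the TCA genes higher, and the spike-in fit of the 4 libraries called 11, 41 and 15.

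Genes of the cytosolic ribosome moved as a block in the other direction. Of 79 tested ribosomal protein genes 74 were lower with Vem than with TCDD and 0 higher, with a narrow range from -1.23 to -0.11 and a median of -0.75. RPS6, a small subunit protein, had 639 and 717 CPM with Vem and 1375 and 1331 CPM with TCDD (-1.0, adjusted p = 5.26e-08). The vehicle libraries lay between them, at 1064 and 1012 CPM, and the same held for the list, whose median was -0.33 for Vem over vehicle and 0.42 for TCDD over vehicle. RPSA (-1.19) and RPS29 (-1.23) of the small subunit and RPL26 (-1.17) of the large subunit differed by over 2-fold, and RPL3 by -0.63. Many ribosomal protein genes have processed pseudogenes that can take their reads, so single values are uncertain. The spike-in fit of 12 libraries called 8 of them lower and that of the 4 libraries 77. Of 48 ribosome biogenesis genes 24 were lower and 4 higher: FBL, the fibrillarin methyltransferase, differed by -1.26, NPM1, nucleophosmin, by -1.09 and NOP58, a small nucleolar RNP core protein, by -1.16. The mitochondrial ribosome showed no common direction, with 22 of 75 members higher and 19 lower.

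Lysosomal genes were mostly higher with Vem. Of 53 tested members 33 were higher and 7 lower, with a median of 0.35, beside 24.1% higher and 26.5% lower among all tested genes. CTSD (chr11:1773982-1785803, reverse strand), the protease cathepsin D, stood at 737 and 773 CPM with Vem and 221 and 239 CPM with TCDD (1.72, standard error 0.10, adjusted p = 1.21e-09). MCOLN1, a lysosomal calcium channel, had 68.1 and 68.4 against 23.3 and 24.6 CPM (1.51), and ATP6AP1, an accessory subunit of the proton pump, 581 and 566 against 196 and 208 CPM (1.5). The groups did not overlap in these 3 genes. GAA, the acid glucosidase of glycogen breakdown (1.42), and the pump subunit ATP6V0D1 (1.04) were higher too, and LAMP1, a membrane glycoprotein of lysosomes, by less (0.37, lost with spike-in scaling of 12 or 4 libraries at adjusted p = 0.840 and 0.133). The spike-in fit of 12 libraries called 4 members higher and that of the 4 libraries 23.

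Pigment genes were among the most abundant transcripts, and most of those that differed were higher with Vem. Of 18 tested genes of melanin synthesis and the melanosome matrix 11 were higher and 3 lower, with a median of 0.52. Among all tested genes 24.1% were higher and 26.5% lower. TYRP1 (chr9:12685439-12710285, forward strand), an enzyme of eumelanin synthesis, had 15551 and 16729 CPM with Vem and 6899 and 6298 CPM with TCDD, 2.45-fold higher (1.29, standard error 0.12, adjusted p = 1.31e-07). PMEL, the protein of melanosome fibrils, had 21053 and 22338 against 11487 and 11985 CPM (0.89). The Vem libraries lay above the TCDD libraries in both genes. DCT, dopachrome tautomerase (0.85), OCA2, a melanosomal anion transport protein (1.25), SLC45A2, a transporter of the melanosome (0.59), and TPCN2, a cation channel (0.98), were higher. TYR, tyrosinase, went the other way, at 1204 and 1274 CPM with Vem and 1446 and 1420.2 CPM with TCDD (-0.21, adjusted p = 0.0467, lost without any 1 of the 4 libraries at adjusted p = 0.0612 to 0.208). The call was also lost with DESeq2 (adjusted p = 0.0727) and with RLE factors (0.0740). So did SLC24A4, a cation exchanger (-1.21), and MC1R, the melanocortin receptor (-0.61), the latter lost without TCDD replicate 2 (adjusted p = 0.13) or Vem replicate 2 (adjusted p = 0.217) and with DESeq2 (adjusted p = 0.0916). MLANA, a melanosomal membrane protein, did not pass the test (0.04, adjusted p = 0.783). The spike-in fit of 12 libraries called 0 pigment genes higher and that of the 4 libraries 10. Of 8 pigmentation genes taken from the study's text, which is no independent source of their direction, 5 were higher and 1 was lower.

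The promoter of TYRP1 is shown for the core of the M-box, the element through which MITF acts on pigment genes. The capitals mark both matches (chr9:12693135-12693384, forward strand, RefSeq, GRCh38.p14, 250 bases before the start).

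TYRP1: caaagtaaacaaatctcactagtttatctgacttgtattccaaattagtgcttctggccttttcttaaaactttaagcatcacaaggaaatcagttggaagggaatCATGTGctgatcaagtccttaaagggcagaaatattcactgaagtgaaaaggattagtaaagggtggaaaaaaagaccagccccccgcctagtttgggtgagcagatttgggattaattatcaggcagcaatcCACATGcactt

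The hexamer was searched as CATGTG on both strands. It stood in 8 of 16 genes of the melanin list with a promoter sequence (50%), in 5.73% of the tested genes and in 9.54% of all promoters. The second match is the hexamer read on the other strand. The promoter of TYR, which was lower with Vem, also held 2 matches.

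Of 26 genes that move and sort melanosomes, 10 were higher with Vem and 4 lower, with a median of 0.13 that turned to -0.01 with spike-in scaling. RAB32, a GTPase of melanosome biogenesis (1.26), MLPH, melanophilin (0.97), and RAB27A, the GTPase that binds it (0.93), were higher, and RAB17 was lower (-0.91). Among 21 lineage regulators 13 were higher and 4 lower. MITF, the master regulator of melanocytes, had 1216 and 1259.8 CPM with Vem and 943 and 863 CPM with TCDD (0.45, adjusted p = 0.0138), SOX10 differed by 0.37, and TFAP2A, a factor that works beside MITF, by 1.52. IRF4, which cooperates with MITF at TYR, had 86.2 and 85.8 against 19.8 and 22 CPM (2.05, adjusted p = 5.01e-09). POU3F2, the factor BRN2, was on the other side, at 4.03 and 4.07 CPM with Vem and 21.7 and 21.9 CPM with TCDD (-2.42), as were LEF1 (-0.56), SNAI2 (-0.49) and KIT (-0.37). The call of MITF was lost without TCDD replicate 2 (adjusted p = 0.0947) or Vem replicate 2 (0.0729), that of SOX10 without TCDD replicate 1 (0.0545), those of both with spike-in scaling of the 4 libraries (0.0549 for MITF and 0.150 for SOX10), and that of KIT without TCDD replicate 1 (0.055) or Vem replicate 2 (0.058). The groups were apart in both IRF4 and POU3F2.

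Of 6 resistance genes taken from the study's text, which is no independent source of their direction, 4 were tested and 3 were lower with Vem: the integrin ITGA1 (-2.94), the glycosyltransferase GCNT1 (-2.05) and the lysophosphatidic acid receptor LPAR1 (-1.45). LPAR1 lost its call without TCDD replicate 1 (adjusted p = 0.072) or Vem replicate 2 (0.0529). ZEB1 was not called (-2.56, adjusted p = 0.0858), and AXL and NRP1 had at most 2 counts in any of the 4 libraries. Over vehicle, Vem called 3 of the 4 tested genes lower and 0 higher (median -2.07). TCDD over vehicle called 0 in either direction (median 0.12). The medians of all tested genes over vehicle were -0.03 with Vem and -0.005 with TCDD. These counts over vehicle lack a background, since the shares of all tested genes called there are not given here. Among 23 receptor tyrosine kinases 10 were lower and 3 higher, beside 26.5% lower and 24.1% higher among all tested genes. EGFR had no count with Vem and 0.857 and 0.662 CPM with TCDD, which is at least 3.46-fold lower. MET, the hepatocyte growth factor receptor, was higher (0.83). NGFR had at most 3 counts in these libraries, so no fold is given.

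Lipid and sugar metabolism divided by enzyme. In cholesterol synthesis and uptake 13 of 28 members were lower with Vem and 4 higher, beside 26.5% lower and 24.1% higher among all tested genes. INSIG1, which retains SREBP in the endoplasmic reticulum, had 17.5 and 18.3 CPM with Vem and 76.9 and 75.8 CPM with TCDD (-2.09, adjusted p = 9.70e-09), while TM7SF2, a sterol reductase, had 33.6 and 35.3 against 5.01 and 6.32 CPM (2.62, adjusted p = 1.75e-09). The groups were apart in both, in opposite directions. SQLE, squalene epoxidase, was lower too (-1.69). In glycolysis and pyruvate handling 10 of 29 were higher and 8 lower, with a median of 0.01 that turned to -0.14 with spike-in scaling: HK2, a hexokinase, had 31.5 and 26.8 against 125 and 119 CPM (-2.06), and LDHA, lactate dehydrogenase, (-0.98), SLC2A1, the glucose transporter GLUT1 (-1.13), and the pyruvate dehydrogenase kinase PDK1 (-2.11) were lower too. Fatty acid genes gave 7 higher and 6 lower of 20, with ACSS2, an acetyl-CoA synthetase, higher (1.03) and ACSL3, an acyl-CoA synthetase, lower (-1.67).

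Amino acid stress genes were also divided. CHAC1, an enzyme that degrades glutathione and an ATF4 target, had 33.7 and 24.7 CPM with Vem and 2.12 and 1.91 CPM with TCDD (3.84, adjusted p = 7.23e-07). ATF4 itself (0.50, lost without TCDD replicate 1 at adjusted p = 0.0845 and without Vem replicate 1 at 0.145), ASNS, asparagine synthetase (1.14), and PSAT1, of serine synthesis (1.38), were higher, but PHGDH, the first enzyme of serine synthesis, had 283 and 247 against 733 and 773 CPM and was lower (-1.51). In the whole list 10 of 25 were higher and 5 lower. Aminoacyl tRNA synthetases were higher in 12 of 20 members, for example WARS (0.96) and SARS (0.69), and lower in 5.

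Genes of the cell surface and matrix included FN1, fibronectin, which had 625 and 565 CPM with Vem, 2721 and 2544 CPM with TCDD and 1110.1 and 956 CPM with vehicle (-2.15 for Vem over TCDD, adjusted p = 7.76e-10). The TCDD libraries were above the vehicle libraries and the Vem libraries below them. LAMA5, a laminin chain, was higher with Vem (1.91), and of 34 collagen, laminin and integrin genes 13 were lower and 5 higher. Wnt genes were lower in 13 of 23 members and higher in 2, with SFRP1, a secreted antagonist, at -3.55 and AXIN2, a feedback target, not called at 0.15. In the TGF beta and BMP list 7 of 27 were higher, such as ID2 (2.26), and 6 lower, such as TGFBR1 (-1.19). These counts lay near the shares over all tested genes, 24.1% higher and 26.5% lower. MHC class I and peptide loading genes gave 6 higher and 6 lower of 20, with HLA-B lower (-0.74). Of 37 interferon stimulated genes 4 were higher and 11 lower, beside the same shares over all tested genes. HLA genes are near-identical in parts and their values are uncertain.

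Of 37 proteasome genes 14 were lower and 3 higher, beside 26.5% lower and 24.1% higher among all genes. Of 25 YAP and TEAD targets 6 were lower and 5 higher, and of 18 BCL2 family genes 6 were lower and 6 higher, with BCL2L1, the antiapoptotic BCL-XL, higher (1.05). Of 21 NRF2 genes 8 were higher, such as FTH1, ferritin heavy chain (1.02), and 5 lower, such as TXN, thioredoxin (-1.07). Of 19 neural and glial genes 6 were higher, such as MBP, myelin basic protein (1.67), and 7 lower, such as S100B (-1.75). Of 5 MHC class II genes 1 was called, HLA-DPA1 (1.17), and of 15 regulators of mitochondrial biogenesis 2 were higher and 4 lower. Among the cell type markers tested, KRT10 was higher (0.37), LUM lower (-2.56), VWF higher on at most 15 counts, and LYZ lower on at most 9 counts. KRT10 lost its call without Vem replicate 2 or either TCDD library (adjusted p = 0.0515 to 0.228), and LYZ without TCDD replicate 1 or either Vem library (0.0522 to 0.116).

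The genes with the largest differences belonged to few of these lists. The highest ratios with Vem were in PTGDS, prostaglandin D synthase, at 19.2 and 19.8 CPM with Vem and 0.677 and 0.662 CPM with TCDD (4.84, standard error 0.21, adjusted p = 5.44e-11), and SLC7A4, a member of the cationic amino acid transporter family, at 48.8 and 53.8 against 1.81 and 1.91 CPM (4.79). CYP19A1, aromatase, had 36.4 and 52.7 CPM with Vem and 2.89 and 2.21 CPM with TCDD (4.09). In all 3 genes both TCDD libraries were far under either Vem library. KNDC1 (4.25), MYH7B, a myosin heavy chain (4.2), CTD-2006K23.1 (4.13), LIMS2, an adaptor of focal adhesions (4.01), SLC5A10, a sugar transporter (3.85), CHAC1, HIST1H2AC, a histone H2A gene of a large family (3.71), and MLIP (3.62) were also among the 12 largest. Leaving out 1 library did not end the call of any of these 11 genes, which were chosen for large differences in the same libraries.

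At the other end, IL10, an anti-inflammatory cytokine, had no count with Vem and 72 and 49 counts with TCDD, at least 15.6-fold lower against a floor of 3 counts per library. SPRR2D, a small proline-rich protein of the skin barrier, had none with Vem and 2.39 and 4.26 CPM with TCDD, at least 15.2-fold lower. SHISA2, an endoplasmic reticulum protein that holds back receptors of FGF and Wnt, had 0.835 and 1.08 CPM with Vem and 71.6 and 71.3 CPM with TCDD (-6.22). The Vem libraries of these genes were at or close to 0 and the TCDD libraries were not. ICOS, a T cell costimulator gene, had 2 and 1 counts with Vem and 200 and 93 with TCDD, at least 36.1-fold lower, in libraries where CD3E had no count. C1QTNF3, a secreted C1q family protein (-5.12), RLBP1, a retinaldehyde-binding protein (-5.09), and RP11-542A14.1 (-5.83) were lower, and RP11-542A14.2 and CTD-2023N9.1 were at least 27.5-fold and 16.3-fold lower. ETV4, SPRY4 and DUSP6 completed the 12.

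**Figure D4:**
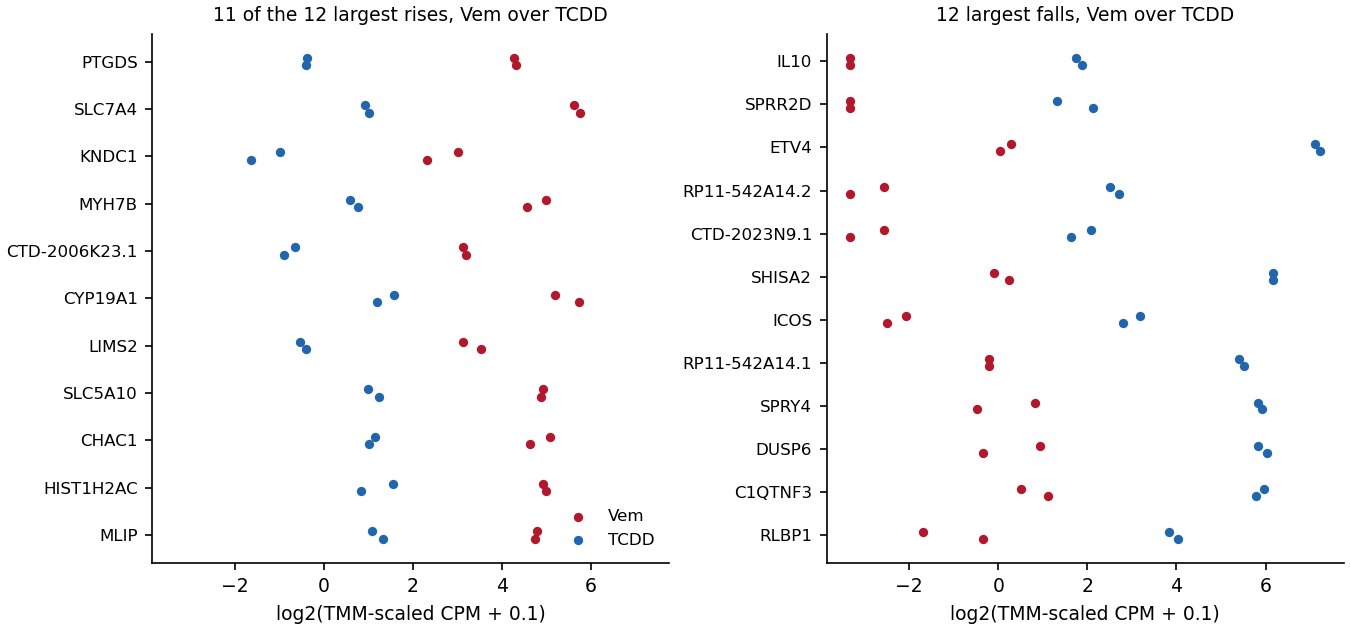
Points are single libraries of 11 of the 12 largest rises (left) and of the 12 largest falls (right) of Vem over TCDD, on the x axis as log2(TMM-scaled CPM + 0.1), with Vem in red and TCDD in blue. The genes shown were chosen among those without overlap between the groups, as 77.5% of all tested genes were. IL10 and SPRR2D sit at the left edge with Vem because they had no count.

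The same pair of ligands was also given together with RSV, in 4 libraries that the comparison above does not use. Between RSV+Vem and RSV+TCDD 3604 genes (22.4%) differed, 1479 (9.2%) higher and 2125 (13.2%) lower with RSV+Vem. Of the 3877 genes higher with Vem over TCDD, 1051 (27.1%) were also higher with RSV+Vem over RSV+TCDD, which is 71.1% of the 1479, and of the 4269 lower genes 1624 (38%) were also lower, which is 76.4% of the 2125. The median log2 fold change of the higher genes was 0.71 without RSV and 0.25 with it, and that of the lower genes -0.84 and -0.31. Those genes were chosen in the first pair, which raises their size there. Across all tested genes, which are not independent, Pearson's r between the comparisons was 0.61 and Spearman's rho 0.58, with a common fit and different libraries. The RSV+Vem libraries held 17631920 and 8378655 counts, and without RSV+Vem replicate 1 the number of called genes was 1993. Their RNA integrity numbers, a measure of RNA quality, were 8.7 and 8.6, the lowest of the series. Those of the RSV+TCDD libraries were 9.1 and 9.2. RNA quality thus cannot be told apart from the ligand in this pair, and its part was not tested.

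The difference between the 2 comparisons was tested itself, as the log2 fold change of Vem over TCDD minus that of RSV+Vem over RSV+TCDD, and 3250 genes (20.2%) passed, 1563 (9.72%) with a positive and 1687 (10.5%) with a negative difference. Without TCDD replicate 1 the number was 1893 and without Vem replicate 1 it was 2149. Scaling to the spike-ins, which moved the median of this difference to -0.68, left 206, of which 204 were negative. The same scaling moved the median of all genes between RSV+Vem and RSV+TCDD to 0.51 and left 259 genes called there, so the directions given with RSV are relative to TMM scaling. The control sequences, mostly spike-ins, took 0.0389% and 0.0903% of counts in the RSV+Vem libraries and 0.0630% and 0.0936% in the RSV+TCDD libraries. In the Vem libraries they took 0.0442% and 0.0447%. Replicates with RSV thus disagreed on this scale, so values with RSV under spike-in scaling are uncertain.

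Mitotic genes differed with RSV most uniformly. In 65 of 66 members the log2 fold change of Vem over TCDD was called more negative without RSV than with it, the exception being ESPL1, separase. With RSV, 21 members were lower and 3 higher, with a median of -0.18, which spike-in scaling turned to 0.30. That scaling left the difference called in 38. PLK1 stood at 48.1 and 47.0 CPM with Vem and 122 and 138 CPM with TCDD, but at 43.5 and 48.5 CPM with RSV+Vem and 28.0 and 26.1 CPM with RSV+TCDD. The order of the ligands was thus turned, with log2 fold changes of -1.45 and 0.76 and a difference of -2.21 (standard error 0.17, adjusted p = 5.59e-07). KIF20A, a mitotic kinesin (-1.37 and 0.85), and CDC20, an activator of the anaphase-promoting complex (-1.61 and 0.61), were turned likewise. CCNB1 was at 71.1 and 71.4 CPM with RSV+Vem and 64.6 and 71.7 CPM with RSV+TCDD, where the groups overlapped, against 46.1 and 44.1 and 164 and 166 CPM without RSV. Of the replication genes 38 of 50 were lower and 0 higher with RSV, with a median of -0.50, but the difference passed in 46, and in repair genes it passed in 27 of 35. Spike-in scaling moved the median of the replication genes with RSV to -0.02 and that of the repair genes from -0.41 to 0.10, and left the difference called in 0 and 6.

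ERK output genes stayed low with RSV+Vem, with 20 of 22 lower than with RSV+TCDD and a median of -2.13, which spike-in scaling moved to -1.61 with 13 lower. ETV4 was at 1.65 and 1.57 CPM with RSV+Vem and 91.4 and 91.0 CPM with RSV+TCDD (-5.81), and DUSP6 at 14.5 and 11.9 against 173 and 192 CPM (-3.77). The groups did not overlap in either gene, but the share of all tested genes without overlap in this pair is not given here. The difference between the comparisons passed in 13 members, 12 of them with a more negative log2 fold change without RSV than with it. Ribosomal protein genes were lower in 77 of 79 members with RSV, with a median of -0.63 that spike-in scaling moved to -0.10 with 0 called, and the difference passed in 9.

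AhR targets lay closer together with RSV. CYP1A1 was at 22.2 and 28.1 CPM with RSV+Vem and 41.8 and 42.2 CPM with RSV+TCDD (-0.76). Its difference from the pair without RSV was -2.71 (standard error 0.18, adjusted p = 3.11e-07 by the quasi-likelihood test). NQO1 was at 261 and 288 and 273 and 308 CPM, with overlapping groups (-0.08, adjusted p = 0.549), where TCDD alone had been above Vem alone. The TCDD dose of the RSV+TCDD libraries is uncertain between 1 and 10 nM, so it cannot be told apart from the part of RSV in these differences. The difference passed in 7 of the 10 AhR targets, and in 2 under spike-in scaling, which also turned the median with RSV from -0.37 to 0.12.

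Pigment, mitochondrial and lysosomal genes behaved less alike. TYRP1 was higher with RSV+Vem too (1.21), and the difference of 0.08 from the pair without RSV did not pass (adjusted p = 0.756). The same held for OCA2 (1.36, difference -0.12, adjusted p = 0.66). PMEL was at 7991 and 7711 CPM with RSV+Vem and 8872 and 8901 CPM with RSV+TCDD (-0.18, adjusted p = 0.0955, difference 1.07, adjusted p = 5.39e-06). Mitochondrially encoded genes were higher in 9 of 13 with RSV and the difference passed in 1. In the TCA cycle it passed in 11 of 20, and in lysosomal genes in 29 of 53, where 8 were higher and 15 lower with RSV. Spike-in scaling turned the median difference from 0.45 to -0.19 in the TCA cycle and from 0.50 to -0.15 in lysosomal genes, with 0 members called in either.

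**Figure D5:**
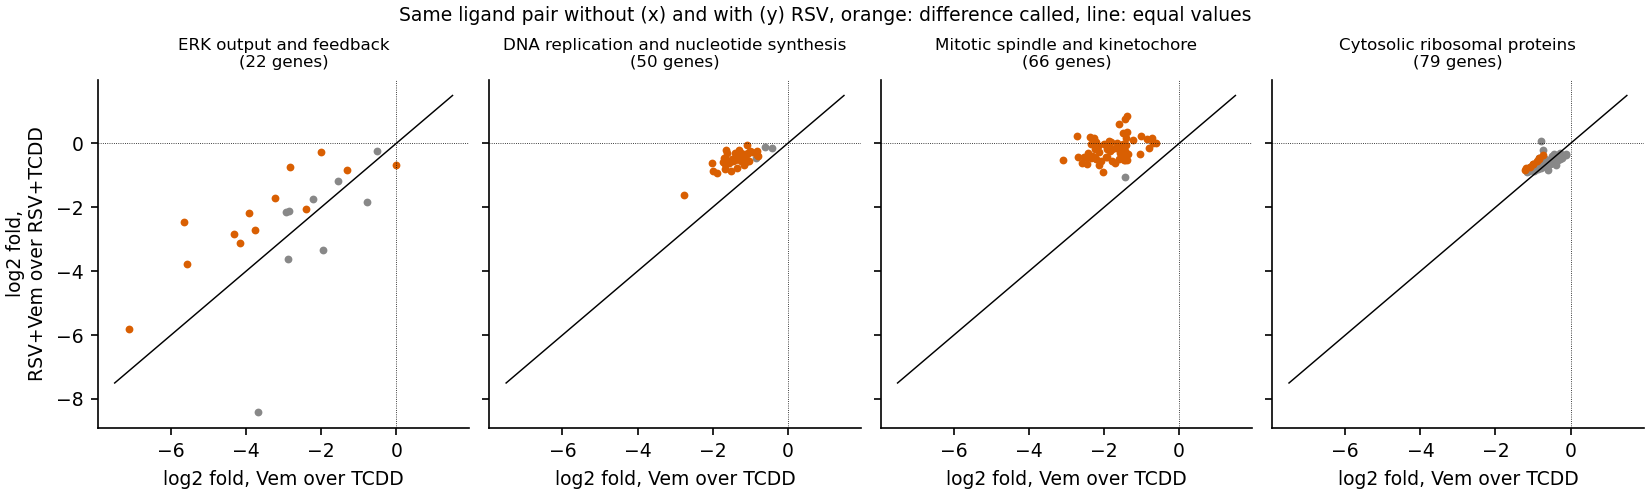
Each point is a gene of the list named above the panel, with the log2 fold change of Vem over TCDD on the x axis and of RSV+Vem over RSV+TCDD on the y axis, and the line marks equal values. Orange points passed the test of the difference. Mitotic genes lie near 0 on the y axis (median -0.18), and ribosomal protein genes lie along the line.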

How the data were processed

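Total RNA of 501Mel cultures was sequenced as poly(A)-selected, stranded, paired-end libraries with added ERCC spike-in RNAs. The authors aligned the reads to hg19 with STAR 2.4.0a and counted read pairs per gene symbol with featureCounts of Subread 1.5.0-p3, per the labels and the study's methods, and the deposited values are raw counts. The annotation release is not given in the sources used here. The library kit was stranded (TruSeq Stranded mRNA), and the study's methods give the featureCounts strand option as 1, although 2 is usual for this kit. Which strand was counted was not settled here, so a gene and its antisense partner cannot be told apart. Reads shared by paralogs, processed pseudogenes or overlapping and antisense genes can be split or lost, which makes values of such genes uncertain.

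From the counts, 96 control sequences (92 of them ERCC spike-ins) were set aside, and filterByExpr kept 16080 of 56638 symbols. All 12 libraries entered 1 edgeR 4.0.16 quasi-likelihood fit (R 4.3.3, limma 3.58.1) with TMM factors and 1 mean per group, and contrasts gave Vem against TCDD, RSV+Vem against RSV+TCDD, their difference, and each ligand against vehicle. Tests were two-sided, p-values were adjusted by Benjamini and Hochberg over all tested genes, with 0.05 as the limit for a call. The sources name DESeq2 as the study's own test, and DESeq2 1.42.0 was run as an alternative. Counts on genes ranged from 8378655 to 25076925 per library, and the common biological coefficient of variation was 0.0915. The script was tested on simulated data. Replicate libraries differed by more than sampling noise in every group, with chi-square values of 4.81 to 23.6 per degree of freedom. Each library was counted as 1 sample, though such values do not show separate cultures. Equal replicate numbers were not taken to pair libraries, since nothing in the labels ties them and the correlation of deviations was 0.03 for Vem and TCDD and between -0.12 and 0.15 over the 15 pairs of groups. Over the RSV groups it was 0.12 to 0.15 in all 3 pairs, with 0.12 for RSV+Vem and RSV+TCDD, so a shared batch of these was not settled. The floor for near-zero genes was 3 counts per library and covers counting error only.

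The 44 gene lists (1206 genes) and the rule for named genes were chosen with earlier results of these data known. The rule named the 12 largest and 12 smallest fold changes among called genes with no overlap between groups and 50 or more counts on average where they were higher, the key genes of each list, the 4 called members of each list with the largest absolute fold change at the same count minimum, and the 5 largest differences with RSV. Named after their values were seen were NDUFV2, PTGS2, VAV3, MC1R, IDH2, KIF20A, CDC20, ESPL1, MT-ND6, LYZ, VWF, LIF, DUSP5, EPHA4, IL8, GCNT1, LPAR1, ZEB1, SNAI2, KIT, SPRED1, SPRED2, FOSL1, EGR1 and IER3, as exceptions or further members of a list. Some genes that the rule named are not reported here. Alternatives were DESeq2, RLE factors, spike-in scaling, other count filters, a replicate block, a fit of the compared libraries alone, a fold threshold and leaving out each library. Gene positions are those of GENCODE release 44 lifted to GRCh37, matched by symbol, and promoter sequences are from RefSeq on GRCh38.p14. Promoters were matched by symbol for 10888 tested genes. Figures were drawn with matplotlib 3.10.9.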

Additional observations from a re-analysis of the deposited data

Results flagged for a closer look

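The response to the ligands differed with RSV in 3250 genes, by a test of the difference itself (edgeR quasi-likelihood, Benjamini-Hochberg adjusted p below 0.05), and 90 of them were called in opposite directions without and with RSV. Among the gene lists, the difference passed in 7 AhR targets, 13 ERK output genes, 46 replication genes, 65 mitotic genes, 27 recombination and Fanconi genes, 11 TCA cycle genes and 29 lysosomal genes. These lists were picked because over 50% of their tested members passed.

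The 5 largest differences, among genes that averaged 50 counts or more in a group, were all negative. ICOS gave -4.11, with 9.03 and 6.84 CPM with TCDD alone but 2.43 and 2.78 CPM with RSV+TCDD. RP11-1220K2.2 gave -4.25, with 12.7 and 11 CPM with TCDD and at most 4.81 CPM in any other library. CTD-2207A17.1 gave -6.16, a fitted value that depends on the lack of counts with Vem, and its call was lost without either Vem library (adjusted p = 0.0827 and 0.0708) or RSV+Vem replicate 1 (0.0567). EMILIN3, which encodes a matrix glycoprotein, gave -3.63, with no count and 2 counts with Vem, and lost its call without Vem replicate 1 (adjusted p = 0.0545) or RSV+Vem replicate 1 (0.0722). RNVU1-7, a variant U1 small nuclear RNA of a multigene family, gave -4.97, but its TCDD libraries held 148 and 10 counts, and without TCDD replicate 1 the value was -2.53 (adjusted p = 0.218).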

How the results depend on the processing

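Vem against TCDD gave 8146 calls (3877 higher and 4269 lower). Other tools and filters gave 7303 to 8148 calls, the fit of the compared libraries 9331 and leaving out 1 library 6218 to 6781. Spike-in scaling gave 1553 (359 higher, 1194 lower) in the fit of 12 libraries, and testing against a log2 fold change of 1 in size gave 1224 (402 higher, 822 lower). RSV+Vem against RSV+TCDD fell from 3604 to 259 (171 higher, 88 lower) and 187 (34 higher, 153 lower) with these, and the difference from 3250 to 206 (2 higher, 204 lower) and 141 (31 higher, 110 lower). Leaving out 1 library gave 1993 to 2514 calls (751 to 942 higher, 1242 to 1618 lower) with RSV and 1893 to 3195 (883 to 1498 higher, 1010 to 1697 lower) for the difference. Why spike-in scaling lowered the calls was not tested. The control sequences, mostly spike-ins, held 0.0310% to 0.0936% of a library's counts over all 12 libraries, and 0.0401% to 0.0457% in the Vem and TCDD libraries.

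In the lists, spike-in scaling of 12 libraries and the threshold left 4 and 4 AhR targets lower, 0 and 1 pigment genes higher, 0 and 0 mitochondrially encoded and 0 and 0 respiratory chain genes higher, 2 and 2 TCA genes higher, 8 and 1 ribosomal protein genes lower, and 4 and 6 lysosomal genes higher. The threshold left 28 replication genes. The ERK output and mitotic counts stayed within 1.5 times under every alternative run.

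With the replicate number as a block, 8224 genes were called for Vem against TCDD (3904 higher, 4320 lower), and of the named genes DUSP5 gained a call there and none lost one. The block gave 3715 (1539 higher, 2176 lower) for RSV+Vem against RSV+TCDD and 3379 (1625 higher, 1754 lower) for the difference. Nothing in the labels ties equal numbers to a shared culture or day.

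Of 177 called genes that the text names, 67 lost their call with spike-in scaling of 12 libraries and 6 with that of the 4 libraries (ARNT, KRT10, LAMP1, MAPK3, MITF and SOX10). With DESeq2 TYR, MC1R and REEP2 lost theirs. BRAF, CDKN1B, MT-ND6 and DUSP5 gained a call in the fit of the compared libraries, where DUSP5 had an adjusted p of 2.13e-04. Values near 0 turned, with ranges over leaving out 1 library. MLANA gave -0.10 with either spike-in scaling and -0.064 to 0.14 without 1 library, EPHA4 gave 0.012 with DESeq2 and RLE factors and -0.14 to 0.10, MT-ND6 gave -0.11 to 0.50, and CDKN1A gave -4.76 (called without TCDD replicate 2) to 0. Between RSV+Vem and RSV+TCDD, NQO1 gave 0.41 and PMEL 0.33 with spike-in scaling, and without 1 library NQO1 gave -0.17 to 0.00099 and CCNB1 -0.012 to 0.14. The difference for TYRP1 gave -0.55 with spike-in scaling and -0.060 to 0.22 without 1 library. With spike-in scaling PLK1, KIF20A, CDC20 and CYP1A1 were not called between RSV+Vem and RSV+TCDD (adjusted p = 0.0929 to 0.657), nor were the differences of NQO1, ETV4 and PMEL (adjusted p = 0.172 to 0.722). The difference of ETV4 was also lost without RSV+Vem replicate 1 (adjusted p = 0.0663).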
